A study of Mus musculus with 40 samples.

Results

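Mouse astrocyte-like cells made from embryonic stem cells (ES-astrocytes) were compared by whether the stimulus they had received held interleukin-1 (IL-1). The 8 libraries labelled il1a+tnfa or il1b+il6 formed the IL-1-containing side and the 8 labelled c1q+c5 or tgfb2 formed the other side, so that 16 of the 40 libraries of the series were used, taken by their stimulus labels. Control ES-astrocytes and all ES-motor neurons were not used. In il1a+tnfa the cells received interleukin-1α with tumour necrosis factor α (TNF-α), which served as a positive control in the study, and in il1b+il6 they received interleukin-1β with interleukin-6. In c1q+c5 they received the complement components C1q and C5, and in tgfb2 transforming growth factor β2 (TGF-β2). Each stimulus was given for 24 hours before ES-motor neurons were added, and had 4 biological replicates, lettered A to D.

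The study asks how inflammatory proteins change astrocytes and the motor neurons that touch them. All cells came from a single transgenic mouse embryonic stem cell line that makes a green fluorescent protein under the promoter of the motor neuron gene Hb9, and the ES-astrocytes were expanded over several passages and matured with forskolin, an activator of cAMP synthesis. A replicate was a separate vial of a passage, so all replicates share the line. Sorted ES-motor neurons were plated on the stimulated ES-astrocytes, both cell types were then separated by their fluorescence, and polyadenylated cytosolic RNA of about 200 sorted cells made up each library.

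IL-1α and IL-1β bind the same receptor, which acts through MYD88 and IRAK kinases on the transcription factor NF-κB and on the kinase JNK, and TNF-α reaches NF-κB and JNK through receptors of its own. IL-6 acts through the shared receptor chain gp130 and the transcription factor STAT3, TGF-β2 acts through SMAD proteins and is known for its effect on extracellular matrix genes, and C1q and C5 are parts of the complement cascade. Astrocytes exposed to IL-1 or TNF-α are known to make chemokines, which attract leukocytes, and acute-phase proteins.

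The libraries differed in depth. Replicates A to D held 14831839, 2535419, 2129286 and 2019196 counts in il1a+tnfa, and 5309235, 4679458, 16054290 and 2141079 counts in il1b+il6. They held 1659425, 10158932, 1510823 and 5056889 counts in c1q+c5, and 4166740, 10099902, 2787407 and 4661025 counts in tgfb2. Neither the totals (p = 0.614, exact two-sided permutation test of 8 against 8) nor the genes with counts per library (10789 to 16659, p = 0.397) differed between the sides beyond their spread. Levels are given as CPM, counts scaled to the size of the library by the TMM method. Where a gene has no count, up to 3 counts could have been missed, or 0.228 to 2.05 CPM depending on the library, and a gene of low level can be missed in the shallow ones. All libraries of il1a+tnfa carry plate index 1 and all those of the other 3 stimuli plate index 2, so il1a+tnfa and its plate cannot be told apart, and comparisons of il1b+il6 with c1q+c5 or tgfb2 stay within plate index 2.

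The label was checked against marker genes. Of 18 astrocyte markers 14 had counts, and their summed level ran from 967 to 2766 CPM (median 2192) in the IL-1-containing libraries and from 913 to 3565 CPM (median 1532) in the others. *Fabp7*, a fatty acid binding protein of radial glia and astrocytes, made up 68.4% of this sum, and the defining markers *Gfap*, *Aqp4*, *Aldh1l1* and *Gjb6* were at 0 in all 16 libraries. *Slc1a2*, the glutamate transporter GLT-1, had counts in all 16 libraries at 81.5 to 294 CPM. All 17 neuron markers had counts, and their sum was 4195 to 7109 CPM, with *Gap43*, a growth cone protein, at 23.2% of it. ES-astrocytes is therefore used below as the label of the cultures, whose RNA holds neuronal and glial markers and none of the 4 markers of mature astrocytes named above. By immunostaining, the study reports GFAP, AQP4 and GLT-1 protein in its matured ES-astrocytes. Protein was not measured in these libraries, and the difference from the RNA of *Gfap* and *Aqp4* was not tested. Each library is a bulk sample, in which fewer cells of a type and less RNA per cell cannot be told apart.

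Of the 8 named genes of smallest p among those higher after the IL-1-containing stimuli, *Ccl5*, *Ccl20* and *Cxcl5* belong to the list of chemokines and cytokines, *Saa3* to the IL-6 and STAT3 response and *Cp* to the pan-reactive genes, but no gene passed the edgeR test over all genes. Of 12557 genes that passed the filter on low counts, edgeR called 0 (0.0%), where a call needs an adjusted p (Benjamini-Hochberg) no higher than 0.05 and a log2 fold change beyond 1 in either direction. At an unadjusted p under 0.05 it counted 514, of which 166 (1.32%) were higher and 348 (2.77%) lower in the IL-1-containing libraries, with a median log2 fold change of -0.06 over all genes. These counts depend on single libraries, since there were 973 (214 higher and 759 lower) without il1b+il6 B and 868 (221 and 647) without il1a+tnfa B, and the higher ones were 277 without c1q+c5 B and 275 without tgfb2 A. DESeq2 called 43 genes (0.342%) on the same counts, 14 higher and 29 lower, and limma-voom called 0, with 773 genes at an unadjusted p under 0.05. Fold changes below are fitted by edgeR with their standard errors, for the mean of both IL-1-containing stimuli against the mean of the other 2, unless another comparison or tool is named. Genes and list members are picked out by their unadjusted p. The smallest adjusted p in edgeR was 0.598, for *Ccl5* and *Saa3*, which had counts in 6 and 7 of the 8 IL-1-containing libraries, and it rounded to 1 for every other gene tested, so the differences described below are values that did not pass the test.

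*Ccl5*, a chemokine that attracts T cells and monocytes (chr11:83525778-83530518, minus strand, build GRCm38, ENSMUSG00000035042), was detected after IL-1-containing stimuli alone. It measured 50.4, 12.9, 55.6 and 69.1 CPM in il1a+tnfa, 33.5, 9.16, 0 and 0 CPM in il1b+il6, and 0 CPM in all 8 other libraries. The IL-1-containing mean was 28.8 ± 27.1 CPM (SD, n = 8), and 1154 counts against 0 make it at least 370-fold higher, with the floor of 3 counts taken over the group of 8. Without il1a+tnfa A 490 counts were left and the bound fell to 223-fold, and pooled folds without a library, here and below, were added after the data were seen. The fit gave a log2 fold change of 9.94 ± 1.82 with an adjusted p of 0.598, and a fitted value against an empty side is no bound. Without il1b+il6 A it was 9.06. All 4 il1a+tnfa libraries and 2 of 4 il1b+il6 libraries lay above every library of the other side, and il1b+il6 C had no count of it although it held the most counts of all 16 libraries. Within plate index 2, il1b+il6 gave a log2 fold change of 8.87 against c1q+c5 (adjusted p = 0.897) and of 8.87 against tgfb2 (adjusted p = 0.927). *Ccl5* was the only gene of 24867 with counts (0.00402%) that was found in at least 6 of the 8 IL-1-containing libraries and in none of the other 8. DESeq2 called it at an adjusted p of 1.56e-06 with a log2 fold change of 8.93, in 6 of 8 libraries, and limma-voom gave 5.72 at an adjusted p of 0.171, which is no call. Without the filter on low counts edgeR called it too, as the only call among 24867 genes, at an adjusted p of 0.0136 in the same 6 of 8 libraries and a log2 fold change of 9.92. Over all alternatives its adjusted p ran from 1.56e-06 to 1. Bounds and intervals here cover counting error only, since no molecular identifiers are named for these libraries.

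*Saa3* encodes a serum amyloid A, an acute-phase protein made outside the liver as well (chr7:46711998-46715700, minus strand, ENSMUSG00000040026). Its level was 108, 202, 55.6 and 17 CPM in il1a+tnfa and 25.5, 96.9, 15.8 and 0 CPM in il1b+il6. It was 0, 0, 0 and 13.8 CPM in c1q+c5 and 0 CPM in all 4 tgfb2 libraries. In 7 of 8 IL-1-containing libraries it was above every library of the other side, and il1b+il6 D had no count. The pooled counts gave a 31.7-fold higher level, which rests on c1q+c5 D, since that library holds all 90 counts of the other side and without it the level was at least 807-fold higher, and the fitted log2 fold change was 7.62 ± 1.5 (adjusted p = 0.598). Without c1q+c5 D it was 11.28 and without il1b+il6 B 6.97. Without il1a+tnfa, and so within plate index 2, it was 6.93, without c1q+c5 11.32 and without tgfb2 3.86, and with 2 groups of 8 it was 5.09. DESeq2 called it, in 7 of 8 against 1 of 8 libraries, at an adjusted p of 0.00976 and a log2 fold change of 7.22, and limma-voom gave 7.12 and no call (adjusted p = 0.167). Over all alternatives its adjusted p ran from 0.00976 to 1. *Saa1* and *Saa2*, its neighbours in the genome, were at 0 in all 16 libraries.

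Of the other chemokines, *Ccl20* (chr1:83116766-83119167, plus strand), the ligand of the receptor CCR6, measured 105, 12.9, 0 and 0 CPM in il1a+tnfa and 22.4, 23, 0.154 and 13.7 CPM in il1b+il6. In the other libraries it was at 0 in c1q+c5 and at 4.42, 0, 0 and 0 CPM in tgfb2. The sides overlapped at 0, and 5 of 8 IL-1-containing libraries exceeded the single other library with counts. The fitted log2 fold change was 7.03 ± 1.94, and 6.55 without il1a+tnfa, 4.21 without c1q+c5 and 9.84 without tgfb2. Without il1a+tnfa A it was 5.57 and without tgfb2 A 9.86, and limma-voom gave 3.42 and DESeq2 14.07. *Cxcl5* (chr5:90759360-90761624, plus strand), a neutrophil attractant, measured 12.6, 25.8, 0 and 5.01 CPM in il1a+tnfa and 0, 13.6, 63.9 and 0 CPM in il1b+il6, against 3.42 CPM in c1q+c5 C and 0 CPM in the other 7 libraries. The fit gave 6.77 ± 1.96, which was 5.64 without il1b+il6 C, 9.39 without c1q+c5 C and 4.26 without tgfb2. The 2 genes were not detected in the same libraries, since *Ccl20* was absent from il1a+tnfa D and *Cxcl5* from il1b+il6 A and D, where *Ccl20* had counts. *Ccl7*, a monocyte attractant named after its values were seen, was the fourth chemokine at p under 0.05, with 16.8, 3.05, 0 and 13 CPM in il1a+tnfa, 0, 28.9, 0 and 4.41 CPM in il1b+il6, 11.6 CPM in tgfb2 C and 0 CPM elsewhere (log2 fold change 5.01 ± 2.01).

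Over the whole list of 26 chemokines and cytokines, 17 had counts and 9 passed the filter, of which 4 were higher and 0 lower at p under 0.05, beside 166 higher and 348 lower among all 12557. The median log2 fold change of the 9 was 1.87, also with *Ccl5* at its bound, beside -0.06 for all genes, and 7 of the 9 were positive. Members that are high in few libraries pass the filter through those libraries, so these counts are a description. The summed level of all 26 members was 248, 161, 90.1 and 87.1 CPM in il1a+tnfa and 77.0, 103, 80.2 and 37.2 CPM in il1b+il6. It was 57.8, 33.3, 65.1 and 7.37 CPM in c1q+c5 and 41.5, 12.3, 18.2 and 11.4 CPM in tgfb2. Thus 7 of 8 IL-1-containing libraries lay above all other libraries, and il1b+il6 D lay among them. Of the listed members, 6 had counts on the IL-1-containing side alone, namely *Ccl5* in 6 libraries, *Cxcl1* in 3 and *Cxcl2*, *Il6*, *Lif* and *Tslp* in 1 each, and 0 on the other side alone (all but *Ccl5* named after their values were seen). Over all genes, 2516 had counts on the IL-1-containing side alone and 3801 on the other side alone.

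*Cxcl1*, a neutrophil attractant that did not pass the filter and is named after its values were seen, was at 16.4 and 16.2 CPM in il1b+il6 A and C, at 2.37 CPM in il1a+tnfa B and at 0 CPM elsewhere, which is at least 93.2-fold higher from the pooled counts, or 36.6-fold without il1b+il6 C, but not beyond the spread of the libraries (p = 0.2, exact two-sided permutation test). *Ccl2*, a monocyte attractant that the study names, had counts in il1a+tnfa and none in il1b+il6. It measured 9.48, 41.7, 25 and 0 CPM in il1a+tnfa and 0 CPM in all 4 il1b+il6 libraries, against 13 CPM in c1q+c5 C, 5.47 CPM in tgfb2 A and 0 CPM in the other 6. The plain mean was higher on the IL-1-containing side, 9.52 ± 15.7 against 2.31 ± 4.73 CPM (SD, n = 8 each). The fitted log2 fold change was -1.68, since the fit averages the logarithms of the stimuli and il1b+il6 is empty. Its direction is open, since it turned in 7 of 30 alternatives, to 1.89 without c1q+c5 C, 1.29 without tgfb2 A, 3.18 without il1b+il6, 2.08 with 2 groups of 8 and 0.91 with limma-voom, and to 0.68 and 0.61 with the index primer term, without and with the replicate block. *Cxcl10* and *Il11* were at 0 in all 16 libraries.

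**Figure D1:**
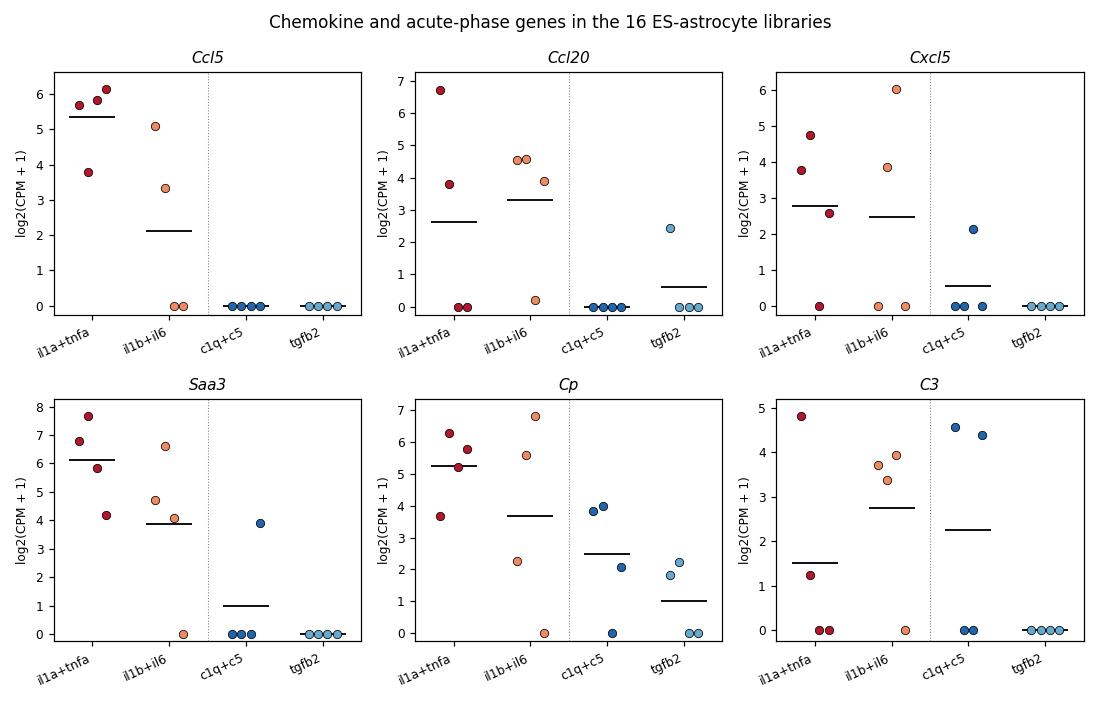
Each dot is the log2(CPM + 1) of a chemokine or acute-phase gene in 1 of the 16 ES-astrocyte libraries, by stimulus on the horizontal axis; black lines are means of 4 libraries and the dotted line separates the IL-1-containing stimuli from the others. *Ccl5* lies at 0 in all 8 libraries on the right of that line, *Saa3* in 7 of them, and *Cp* and *C3* overlap between the sides.

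Genes of astrocyte reactivity behaved unevenly. *Cp*, ceruloplasmin, a copper-carrying ferroxidase and acute-phase protein (chr3:19957054-20009145, plus strand), measured 11.9, 77.0, 35.8 and 54.1 CPM in il1a+tnfa and 3.77, 47.6, 112 and 0 CPM in il1b+il6. It measured 13.3, 15.0, 0 and 3.22 CPM in c1q+c5 and 2.53, 3.73, 0 and 0 CPM in tgfb2. The means were 42.7 ± 38.6 and 4.72 ± 6.02 CPM (SD, n = 8 each), and 5 IL-1-containing libraries exceeded the highest other one. Its log2 fold change was 3.56 ± 1.09, and 3.51 without il1a+tnfa, 2.94 without il1b+il6 C, 4.69 without c1q+c5 and 2.43 without tgfb2. *Cp* was the only 1 of 5 tested members of the 13 pan-reactive genes with p under 0.05 (20%, beside 1.32% of all genes higher), and the median of the 5 was -0.04 beside -0.06. *Lcn2*, lipocalin 2, an iron-binding defence protein of the same list, did not pass the filter and is named after its values were seen. It was at 0.303, 32.9, 44.3 and 0 CPM in il1a+tnfa, at 15.1 CPM in il1b+il6 B and at 0 CPM in all other libraries, at least 86.2-fold higher from the pooled counts (p = 0.0769, exact two-sided permutation test). *Vim*, the intermediate filament vimentin, overlapped between the sides almost throughout, at 357 to 748 CPM against 415 to 752 CPM.

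Among 6 tested of 13 A1 genes, 1 was higher and 1 lower at p under 0.05 (16.7% each), beside 1.32% higher and 2.77% lower of all genes, with a median of 0.08 beside -0.06. The higher gene was *C3*, the central complement component, at 27.3, 1.36, 0 and 0 CPM in il1a+tnfa, 12.2, 9.36, 14.3 and 0 CPM in il1b+il6, 22.6, 0, 0 and 20.1 CPM in c1q+c5 and 0 CPM in tgfb2. For *C3* the log2 fold change was 4.03 ± 1.69, and 2.03 without il1a+tnfa A. Against c1q+c5 alone, without tgfb2, it turned to -0.42, and without c1q+c5 it was 8.49. The lower gene was *Fbln5*, fibulin 5, an organizer of elastic fibres, with counts in 2 of 8 IL-1-containing libraries, at 7.80 and 14.6 CPM, and in all 8 others. In those it measured 22.6, 47.7, 2.74 and 25.8 CPM in c1q+c5 and 16.6, 14.8, 65.8 and 7.92 CPM in tgfb2 (log2 fold change -3.23 ± 1.37, or -6.47 without il1a+tnfa B and -6.84 without il1b+il6 C). Both are listed as A1 genes and lay on opposite sides. None of the 3 tested of 12 A2 genes had p under 0.05, and their median was -0.16. Of 23 complement genes 8 were tested, *C3* alone had p under 0.05 (12.5%), and the median was -0.35.

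Lists of genes downstream of the applied factors held few members at a low p. Of 32 genes of NF-κB feedback and signalling 17 were tested, 1 (5.88%) was higher and 0 lower at p under 0.05, beside 1.32% and 2.77% of all genes. Of the 17, 12 were positive, beside 5747 of 12557, and the median was 0.24 beside -0.06. The higher one was *Vcam1*, an adhesion molecule for leukocytes, with 7.80, 12.7 and 1.5 CPM in il1a+tnfa B, C and D, 12.2 CPM in il1b+il6 B, 10.7 CPM in c1q+c5 D and 0 CPM elsewhere (log2 fold change 4.04 ± 1.87). For *Vcam1* this fell to 0.50 without il1b+il6 B and to 0.51 without tgfb2, and rose to 7.48 without c1q+c5 D. *Nfkbia*, which encodes the NF-κB inhibitor IκBα and is named after its values were seen, was at 4.55 to 53.9 CPM on the IL-1-containing side and at 0 to 51.5 CPM on the other (log2 fold change 0.25). *Sod2*, mitochondrial superoxide dismutase and a known NF-κB target, was at 132 to 274 CPM (median 193) against 84.0 to 163 CPM (median 144), with a log2 fold change of 0.43 ± 0.22. In il1a+tnfa all 4 libraries, at 208, 206, 233 and 179 CPM, exceeded every library of the other side, while 3 of 4 il1b+il6 libraries lay within its range. Of 31 genes of the IL-6 and STAT3 response 21 were tested and *Saa3* alone had p under 0.05 (4.76%) and was the only one that DESeq2 called, with a median of -0.12. *Lcn2*, *Steap4*, *Hp* and *Serpina3n* of this list had counts on the IL-1-containing side alone, the last 3 in 1 library each, which is 4 of 29 members with counts beside 2516 of 24867 genes. Of 29 genes of JNK and AP-1 25 were tested and 0 had p under 0.05 in edgeR, with log2 fold changes from -2.81 to 0.83 and a median of -0.05, and DESeq2 called 0. *Jun* itself was at 0.539 to 28.3 CPM against 0 to 27.6 CPM. The log2 fold change of *Jun* was 0.28, and -0.35 without il1a+tnfa C, 1.10 without c1q+c5 D, -0.07 without il1a+tnfa and -0.22 without tgfb2, so its direction is open. Of 31 interferon and MHC class I genes 12 were tested and 0 had p under 0.05 in edgeR, with a median of -0.18, and DESeq2 called 0. Of these genes 2 had counts on the IL-1-containing side alone and 7 on the other side alone, beside 2516 and 3801 of all genes. The same counts were 2 and 1 for NF-κB feedback and signalling and 2 and 0 for JNK and AP-1. For complement they were 2 and 4, and for the TGF-β response 1 and 4.

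Receptors of the applied factors were sparse. Of 21 genes, 5 had no count in any library, namely *Il1rn*, *Tnfrsf1b*, *Eng*, *C5ar1* and *C5ar2*, and 9 passed the filter with a median log2 fold change of -0.66 beside -0.06 for all genes, 1 (11.1%) of them lower at p under 0.05 beside 2.77%. *Il1r1*, the signalling receptor of IL-1, was found in 2 libraries, at 4.41 CPM in il1a+tnfa B and 2.70 CPM in c1q+c5 B. *Tnfrsf1a*, a TNF-α receptor, had 4.41 and 7.01 CPM in il1a+tnfa B and D and 2.24 CPM in il1b+il6 B, and 0 CPM elsewhere. *Tgfbr2* had counts in c1q+c5 B and C alone, at 1.92 and 4.79 CPM, while its partner *Tgfbr1* was present in all 16 libraries, at 27.5 to 119 CPM against 30.3 to 143 CPM (log2 fold change -0.15, which turned to 0.12 without c1q+c5 D and to 0.22 without il1a+tnfa). *Il6st*, which encodes gp130, was at 2.62 to 38.2 CPM against 0 to 34.5 CPM. The receptor gene of smallest p was *Il1rap*, the accessory chain of the IL-1 receptor. It had 21.8 CPM in il1b+il6 A and 0 CPM in the other 7 IL-1-containing libraries, against 0, 4.96, 2.74 and 5.07 CPM in c1q+c5 and 7.79, 10.2, 4.00 and 0 CPM in tgfb2. The log2 fold change was -3.59 ± 1.70, and within plate index 2 it was 0.36, but -7.55 without il1b+il6 A. Detected in 1 of 8 against 6 of 8 libraries, it was called by DESeq2 at an adjusted p of 3.89e-05, with a log2 fold change of -10.63.

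Of 41 genes of the TGF-β response 32 were tested, 5 were lower and 1 higher at p under 0.05, beside 348 and 166 of all 12557. The median was -0.36 and 19 of the 32 were negative, beside 6810 of 12557, while the summed level had a median of 3540 CPM on the IL-1-containing side and 3422 CPM on the other. The lower ones were *Sparc*, *Col1a2*, *Col1a1*, *Bgn* and *Tagln*, the first 4 secreted matrix proteins and the last a smooth muscle protein of the actin cytoskeleton, with *Bgn* and *Tagln* named after their values were seen. The log2 fold change of *Col1a1* was -2.35, which became -0.06 without il1b+il6, -4.22 without il1a+tnfa B and -3.21 without il1b+il6 C. That of *Col1a2* was -3.90, and -1.96 without il1b+il6, -2.15 without tgfb2 D, -5.02 without il1a+tnfa A and -4.76 without il1b+il6 B. *Sparc*, a collagen-binding protein, was at 203, 211, 105 and 129 CPM in il1a+tnfa, 67.3, 257, 75.1 and 66.6 CPM in il1b+il6, 156, 301, 231 and 435 CPM in c1q+c5 and 304, 416, 138 and 178 CPM in tgfb2. The fitted log2 fold change was -0.97 ± 0.33, and c1q+c5 against tgfb2 gave 0.12. *Loxl2*, a collagen-crosslinking oxidase, was the higher one, at 0 to 15.7 CPM (median 2.81) against 0 to 1.33 CPM (median 0.154), with a log2 fold change of 3.46 ± 1.42, or 2.28 without il1a+tnfa A and 4.25 without tgfb2 D. *Dcn*, the proteoglycan decorin, is not in this list but among the fibroblast markers below, and was highest in tgfb2. It was at 196, 111, 99.0 and 66.6 CPM in il1a+tnfa, 138, 35.6, 133 and 203 CPM in il1b+il6 and 347, 118, 56.2 and 91.2 CPM in c1q+c5, but at 455, 449, 383 and 270 CPM in tgfb2. The log2 fold change of -0.99 ± 0.37 became -1.66 without c1q+c5 and -0.31 without tgfb2.

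Markers of fibroblasts or mesenchyme had a lower mean on the IL-1-containing side. Of 12 markers 9 had counts, and their sum had a mean of 158 ± 74.4 CPM on the IL-1-containing side and 334 ± 146 CPM on the other (p = 0.012, adjusted p = 0.108 over 9 marker lists, exact two-sided permutation test). Per library the sum was 223, 276, 104 and 102 CPM in il1a+tnfa, 139, 47.8, 168 and 203 CPM in il1b+il6, 428, 148, 128 and 210 CPM in c1q+c5 and 468, 465, 412 and 411 CPM in tgfb2. *Dcn* made up 80.2% of it, and the markers *Pdgfrb*, *Postn* and *Thy1* were at 0. In edgeR 5 of the markers were tested, and 3 (60%) were lower and 0 higher at p under 0.05, beside 2.77% and 1.32% of all genes. Of the 5 tested, 3 were negative and 2 positive. *Lum* and *Mgp*, named after their values were seen, had counts on the IL-1-containing side alone, in 1 library each. All 4 tgfb2 libraries and 1 of c1q+c5 lay above the highest IL-1-containing library, and the part of such cells in the TGF-β response list was not tested. *Col1a1*, *Col1a2* and *Col3a1* belong to both lists.

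Of 27 genes of prostaglandins, nitric oxide and proteases 9 were tested, 1 was higher and 1 lower at p under 0.05 (11.1% each), beside 1.32% and 2.77% of all genes, and the median was -0.41 beside -0.06. *Adamts5*, a protease that cleaves aggrecan, was higher at 0 to 16.7 CPM (median 3.72) against 0 to 2.26 CPM (median 0), with a log2 fold change of 3.78 ± 1.5, or 4.55 without c1q+c5 B, 5.04 without tgfb2 A and 2.44 without tgfb2. *Timp3*, an inhibitor of such proteases, was lower at 4.71 to 132 CPM (median 36.8) against 39.0 to 244 CPM (median 87.1), with a log2 fold change of -1.21 ± 0.52, or -0.63 without il1a+tnfa. For both genes the ranges of the sides overlapped.

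The 8 genes of smallest p among those lower after IL-1-containing stimuli shared no list. *Dbp*, a transcription factor controlled by the circadian clock (chr7:45705088-45710203, plus strand), was at 0 CPM in all 8 IL-1-containing libraries. It was at 17.3, 8.18, 17.8 and 5.07 CPM in c1q+c5 and 7.16, 3.44, 0 and 0 CPM in tgfb2, so that 0 counts against 248 make it at least 86.0-fold lower. The fitted value was -7.96 ± 1.81, and both IL-1-containing stimuli lay below every c1q+c5 library. *Dbp* was 1 of 6 genes of 24867 with counts (0.0241%) that were absent from all 8 IL-1-containing libraries and present in at least 6 of the other 8, with *Trim12a*, *Ston2*, *Rps2-ps6*, *Gm43305* and *Gm20219*, which are named after their values were seen. *Otulinl*, which encodes a relative of the deubiquitinase OTULIN, was likewise at 0 CPM on the IL-1-containing side, against 5.66 and 19.2 CPM in c1q+c5 B and D and 10.5, 8.64 and 22.8 CPM in tgfb2 A, B and D. This is at least 148-fold lower by pooled counts, with a fitted value of -8.48 ± 2.02, or -7.63 without c1q+c5 D. DESeq2 called *Dbp* and *Otulinl*, with counts in 6 and 5 of the 8 other libraries, at adjusted p of 0.0192 and 0.0336 and log2 fold changes of -6.99 and -7.53.

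*Rcan3*, a regulator of calcineurin, *Rhog*, a small GTPase, and *Htra1*, a secreted serine protease, each had a single count on the IL-1-containing side. *Rcan3* was at 0, 13.9, 7.53 and 30.2 CPM in c1q+c5 and 2.74, 0.785, 9.09 and 0.233 CPM in tgfb2, which is 432-fold higher than in the IL-1-containing libraries (95% Clopper-Pearson interval 77.1 to 17099). *Rhog* was at 0, 6.01, 0 and 7.52 CPM in c1q+c5 and 9.05, 19.4, 4.36 and 8.85 CPM in tgfb2, a ratio of 426 (76.0 to 16853). *Htra1* was at 0, 4.09, 0 and 26.1 CPM in c1q+c5 and 8.84, 11.5, 0 and 17.2 CPM in tgfb2, a ratio of 468 (83.6 to 18538). Without the library that holds the single count the pooled level was at least 128-fold, 133-fold and 140-fold lower in this order, and without c1q+c5 D *Rcan3* had a ratio of 267. The fitted log2 fold changes were -7.29, -6.96 and -7.66, and -8.15, -8.09 and -8.56 without the library of the single count. *Rcan3* was at -6.65 without tgfb2 C and *Htra1* at -6.46 without c1q+c5 D. DESeq2 called all 3, at adjusted p of 0.00357, 0.0156 and 0.0291 and log2 fold changes of -6.78, -6.64 and -7.15, with counts in 7, 6 and 5 of the 8 other libraries and in 1 of the 8 IL-1-containing ones.

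*Tfrc*, the transferrin receptor, through which cells take up iron (chr16:32608920-32632794, plus strand), was expressed in every library. It measured 38.7, 45.8, 53.3 and 74.1 CPM in il1a+tnfa and 31.3, 19.1, 31.8 and 39.7 CPM in il1b+il6. It measured 76.5, 67.2, 27.4 and 105 CPM in c1q+c5 and 96.4, 130, 221 and 71.1 CPM in tgfb2. The means were 41.7 ± 16.6 and 99.3 ± 57.7 CPM (SD, n = 8 each). With 7 of 8 IL-1-containing libraries below 7 of 8 others, it was called by DESeq2 at an adjusted p of 0.0499 and a log2 fold change of -1.29, and in edgeR the log2 fold change was -1.24 ± 0.33. The size depended on the stimuli, from -0.80 without tgfb2 to -1.69 without c1q+c5, and within plate index 2 it was -1.64.

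*Tppp3*, a tubulin-binding protein, was low in il1b+il6 rather than on the whole IL-1-containing side. *Tppp3* was at 0.222, 0, 0 and 0.490 CPM in il1b+il6, and at 10.9, 32.9, 16 and 26.5 CPM in il1a+tnfa. It was at 2.66, 54.8, 14.4 and 17.8 CPM in c1q+c5 and 30.5, 24.1, 13.1 and 25.4 CPM in tgfb2. Every il1b+il6 library was below every other library. The log2 fold change of -3.68 ± 0.87 became -0.09 without il1b+il6, and il1a+tnfa against il1b+il6 differed by 7.19 (adjusted p = 0.899). DESeq2 called *Tppp3* between the sides at an adjusted p of 0.000179 and a log2 fold change of -3.96, with counts in 6 of 8 against 8 of 8 libraries. *Stil*, a protein of centriole duplication, was lowest in il1b+il6. It was at 0, 0.204, 0 and 0 CPM in il1b+il6, 0 to 13.5 CPM in il1a+tnfa and 1.40 to 62.3 CPM on the other side. Its log2 fold change was -4.74 ± 1.23, and -1.76 without il1b+il6, -7.73 without il1a+tnfa, -5.48 without il1a+tnfa D and -5.58 without il1b+il6 B. DESeq2 called *Stil* at an adjusted p of 0.00176 and a log2 fold change of -4.86, with counts in 4 of 8 against 8 of 8 libraries.

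**Figure D2:**
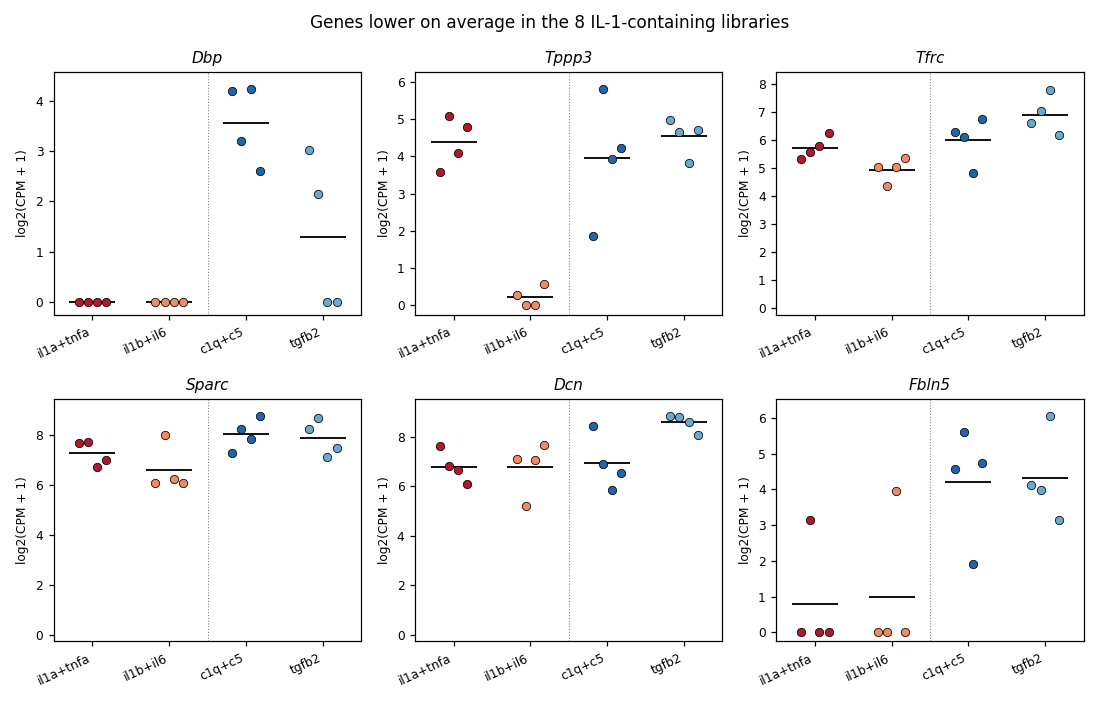
Each dot is the log2(CPM + 1) of a gene with a lower fitted level on the IL-1-containing side in 1 of the 16 ES-astrocyte libraries, by stimulus; black lines are means of 4 libraries and the dotted line separates the sides. *Dbp* lies at 0 in all 8 IL-1-containing libraries, *Tppp3* is low in il1b+il6 alone, and *Dcn* is highest in tgfb2.

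The higher genes without a list included *Atm*, a kinase of the DNA damage response, and *Ranbp9*, a scaffold protein of a ubiquitin ligase complex. Both had low values in c1q+c5, on which the fold change of *Ranbp9* rested. *Atm* was at 28.7, 37.6, 17.4 and 14.5 CPM in il1a+tnfa, 0.444, 38.5, 43.1 and 36.7 CPM in il1b+il6, 2.66, 2, 1.37 and 0.921 CPM in c1q+c5 and 22.1, 5.01, 3.63 and 10.5 CPM in tgfb2. Its log2 fold change was 2.67 ± 0.80, and 1.39 without c1q+c5 and 3.96 without tgfb2. DESeq2 called *Atm* at an adjusted p of 0.0305 and a log2 fold change of 2.64, with counts in all 16 libraries. *Ranbp9* was at 7.31, 7.75, 6.85 and 7.52 CPM in c1q+c5, at 54.7, 34.0, 67.2 and 54.5 CPM in tgfb2, and at 9.25, 18.3, 67.9 and 90.1 CPM in il1a+tnfa and 64.6, 32.6, 111 and 95.0 CPM in il1b+il6. The log2 fold change of 1.59 ± 0.45 shrank to 0.17 without c1q+c5.

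The study discusses several pathways for il1b+il6 against control. All 39 genes of MYC and ribosome biogenesis were tested and 0 had p under 0.05 in edgeR, with a median of -0.12 beside -0.06 for all genes and single values from -1.34 to 1.18, and 29 of the 39 were negative beside 6810 of 12557. Of 32 genes of ER stress 31 were tested and 0 had p under 0.05, with a median of 0.00 and single values from -1.01 to 1.22. DESeq2 called 0 genes in both lists. Of 50 cell cycle genes 49 were tested, 2 (4.08%) were lower at p under 0.05, beside 2.77% of all genes, and 0 higher, and the median was 0.00. The 2 were *E2f2*, a transcription factor of the S phase, at -3.81 ± 1.52, and *Rrm1*, a subunit of ribonucleotide reductase, at -0.91 ± 0.38. Without il1b+il6 they were at -1.41 and -0.62, and *E2f2* was at -4.96 without il1b+il6 C. *Rrm1* was at 49.5 to 157 CPM (median 77.2) against 11.6 to 231 CPM (median 179), and 7 of 8 other libraries were above 7 of 8 IL-1-containing ones. Of 18 genes chosen from those that the study names for its ES-astrocytes 16 were tested, and 0 had p under 0.05 in edgeR (0.132 to 0.974) or were called by DESeq2. Their log2 fold changes ran from -1.68 for *Ccl2*, whose direction turned between alternatives as given above, to 0.34 for *Ranbp1*, a partner of the GTPase Ran, 12 of the 16 were negative and the median was -0.15. Other genes that the study names for these cells lay outside this range, such as *Fgfr3* at -2.10, *Cd44* at 0.65 and *Nkx6-1* at 0.43. *Slc1a3*, also named there, lay within it at -0.80. *Hspa5*, the main chaperone of the endoplasmic reticulum, was at 180 to 620 CPM (median 320) against 160 to 485 CPM (median 381).

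Of 26 genes of glutamate uptake and support 12 were tested, 1 (8.33%) was higher and 0 lower at p under 0.05, beside 1.32% and 2.77% of all genes, and the median was -0.15 beside -0.06. The higher one was *Ntf3*, the growth factor neurotrophin 3, with 8.82 CPM in il1a+tnfa B, 7.53 and 4.41 CPM in il1b+il6 B and D, 4.61 CPM in c1q+c5 B and 0 CPM elsewhere (log2 fold change 3.94 ± 1.82). For *Ntf3* this fell to 0.64 without il1a+tnfa B and to 1.05 without tgfb2, and rose to 6.71 without c1q+c5 B. DESeq2 called another member, *Cntf*, ciliary neurotrophic factor, which is named after its values were seen, at an adjusted p of 0.000766 and a log2 fold change of 9.55 with counts in 5 of 8 against 2 of 8 libraries. In edgeR *Cntf* had 2.48 ± 1.59, limma-voom gave 2.66 without a call (adjusted p = 0.802), and its highest level was 45.4 CPM in tgfb2 D. *Slc1a2* had a log2 fold change of -0.01, which ran from -0.13 to 0.21 without 1 library. Of 21 genes of long-chain lipid synthesis and export 20 were tested and 0 had p under 0.05 in edgeR, with 15 of 20 negative and a median of -0.39 beside -0.06 for all genes, and DESeq2 called 0. Their summed level had a median of 2554 CPM on the IL-1-containing side and 2060 CPM on the other.

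Neuronal markers are of note because the cells had shared a culture with motor neurons. The summed motor neuron markers were at 149 to 425 CPM (median 268) on the IL-1-containing side and 194 to 447 CPM (median 376) on the other (p = 0.289, adjusted p = 0.65, exact two-sided permutation test), with all 15 of 15 markers detected and *Lhx4* at 60.8% of the sum. Of these markers 11 were tested, 8 were negative with a median of -1.34, beside 6810 of 12557 and -0.06 for all genes, and 1 (9.09%) was lower at p under 0.05, beside 2.77%. This was *Mnx1*, which encodes Hb9 itself and had counts in 3 of 8 IL-1-containing libraries, at 0.152, 0.222 and 2.94 CPM, and in all 8 others, at 2.66, 5.83, 4.79 and 19.7 CPM in c1q+c5 and 2.74, 1.28, 1.45 and 2.33 CPM in tgfb2. Its log2 fold change was -4.02 ± 1.38, or -5.59 without il1b+il6 D, -4.87 without il1a+tnfa A and -2.42 without il1a+tnfa. Of the 17 neuron markers, all tested, 8 were positive and 9 negative with a median of 0.00, and 1 (5.88%) was higher and 0 lower at p under 0.05, beside 1.32% and 2.77% of all genes. The higher one was *Snap25*, a protein of synaptic vesicle release, at 148 to 323 CPM (median 196) against 107 to 243 CPM (median 125), with a log2 fold change of 0.62 ± 0.22. The summed neuron markers had means of 5815 ± 998 and 5293 ± 913 CPM (p = 0.277, adjusted p = 0.65, exact permutation test). Of 14 microglia markers 8 had counts, with *Aif1*, *P2ry12*, *C1qa*, *C1qb*, *Tyrobp* and *Ptprc* at 0, and means of the sum of 27.6 and 39.9 CPM (p = 0.0771, adjusted p = 0.347, exact permutation test). The sums of astrocytes, oligodendrocyte lineage, neural progenitors, pluripotent cells and endothelial cells had p of 0.456 to 0.863.

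**Figure D3:**
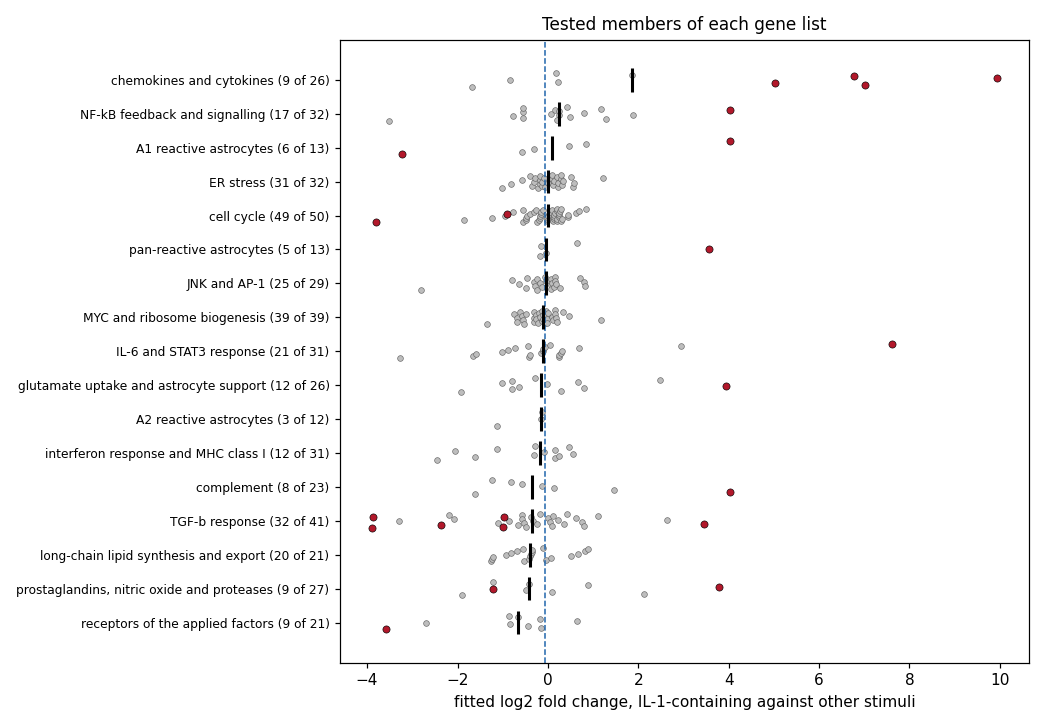
Each dot is the fitted log2 fold change of a tested gene, IL-1-containing against other stimuli, in the gene list named on the vertical axis with its tested and listed members; red dots had an unadjusted p under 0.05 in edgeR, black bars are list medians and the dashed line is the median of all 12557 genes, -0.06. Chemokines and cytokines have the highest list median, 1.87, and 4 red dots to the right.

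The stimuli were also compared with each other, and in the 6 contrasts of single stimuli edgeR called 0 genes in each. At an unadjusted p under 0.05 it counted 275 genes for il1a+tnfa and 642 for il1b+il6 against c1q+c5, 297 and 588 against tgfb2, 503 for il1a+tnfa against il1b+il6 and 307 for c1q+c5 against tgfb2. Without il1b+il6 B the 642, 588 and 503 of il1b+il6 became 1294, 1236 and 1117, and without il1a+tnfa B the 275, 297 and 503 of il1a+tnfa became 649, 685 and 771. Without c1q+c5 B the 275 and 307 became 544 and 540, and without tgfb2 A the 297 and 307 became 583 and 594. Without il1b+il6 B edgeR also called *Qtrt1*, an enzyme that modifies tRNA and is named after its values were seen, as lower in il1b+il6 than in c1q+c5 (log2 fold change -10.93) and tgfb2 (-11.13) and higher in il1a+tnfa than in il1b+il6 (11.59). DESeq2 called 25, 45, 21, 39, 36 and 16 in this order, and limma-voom called 1 for il1a+tnfa against tgfb2, which was *Ccl5*, 1 for c1q+c5 against tgfb2, and 0 for the others. These contrasts share libraries with each other. On principal components of the 500 most variable genes, the first 4 of which held 21.5, 10.8, 8.88 and 7.73% of the variance, the sides were not separated beyond their spread on rlog values (p = 0.121, 0.448, 0.279 and 0.457, adjusted p = 0.457 for each, exact two-sided permutation test of 8 against 8). With log2 CPM in place of rlog values component 2 differed between the sides (p = 0.0104, adjusted p = 0.0416, exact two-sided permutation test).

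Of the 43 genes that DESeq2 called, 36 had no count in any of the 4 libraries of at least 1 stimulus, 26 had p under 0.05 in edgeR, and 2, *Atm* and *Tfrc*, had counts in all 16 libraries. DESeq2 placed *Ccl20* first, at an adjusted p of 1.42e-13 with counts in 6 of 8 against 1 of 8 libraries. Its fitted log2 fold change of 14.07 there and 7.03 in edgeR show how far such a value depends on the fit. Limma-voom called none of the genes whose DESeq2 call is given here, with log2 fold changes of 5.72 for *Ccl5*, 7.12 for *Saa3*, 3.42 for *Ccl20*, 2.66 for *Cntf*, 2.30 for *Atm*, -3.31 for *Il1rap*, -4.55 for *Dbp*, -3.72 for *Otulinl*, -3.85 for *Rcan3*, -3.97 for *Rhog*, -3.55 for *Htra1*, -3.27 for *Tppp3*, -3.88 for *Stil* and -1.21 for *Tfrc*. The adjusted p of each rounded to 1 in at least 1 other fit.

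Promoter sequence was read from a reference set of promoters, from 250 bases before to 50 bases after the start in build GRCm38.p6. This set does not cover every gene, and a missing entry below means a gene that it leaves out. Searched on both strands were GGANTTTCC for NF-κB, found in 1.25% of all 32851 promoters, TGANTCA for AP-1 in 7.81%, TTCNNNGAA for STAT in 8.30% and GTCTAGAC for SMAD in 0.213%. Of the 8 higher genes of smallest p, 5 had an entry and only *Cp* a match, of AP-1, and of the 8 lower ones 7 had an entry and only *Dbp* a match, of STAT. Another entry of *Cp* (chr3:19956999-19957298, plus strand) held no match. *Ccl5*, *Cxcl5* and *Tppp3* are among the genes without an entry. Of the 26 chemokines and cytokines 18 had an entry, of which 6 held the NF-κB letters (*Csf1*, *Cxcl1*, *Cxcl2*, *Cxcl3*, *Cxcl10* and *Il6*) and 5 the AP-1 letters (*Cxcl10*, *Il11*, *Il1a*, *Il6* and *Lif*). These numbers count genes with a match in any entry, while the shares above are of promoters, and the difference was not tested. Of the 6, *Cxcl10* had no count in any library, and *Cxcl1*, *Cxcl2* and *Il6* had counts in 3, 1 and 1 libraries. *Il11* also had an entry without a match. A match is a description of the letters, not of a site in use. The letters searched are narrow forms of each motif, so a promoter without a match may hold another form.

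The promoters of 5 of the genes named above are given with any matching letters in capitals. *Saa3* (chr7:46715627-46715926, minus strand) and *Ccl20* (chr1:83116516-83116815, plus strand) hold no match to the 4 letter patterns in this window. Other forms of these motifs were not searched, so sites of these factors may still be present. The capitals are the AP-1 letters of *Cp* (chr3:19956804-19957103, plus strand) from base 74, the NF-κB letters of *Cxcl1* (chr5:90890995-90891294, plus strand) from base 181 and the STAT letters of *Dbp* (chr7:45704997-45705296, plus strand) from base 152.
Saa3: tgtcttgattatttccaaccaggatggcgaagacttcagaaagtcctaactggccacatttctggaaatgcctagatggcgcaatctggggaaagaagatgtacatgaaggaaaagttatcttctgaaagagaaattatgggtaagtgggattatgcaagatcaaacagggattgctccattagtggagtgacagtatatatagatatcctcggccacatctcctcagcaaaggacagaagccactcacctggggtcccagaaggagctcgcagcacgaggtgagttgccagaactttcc
Ccl20: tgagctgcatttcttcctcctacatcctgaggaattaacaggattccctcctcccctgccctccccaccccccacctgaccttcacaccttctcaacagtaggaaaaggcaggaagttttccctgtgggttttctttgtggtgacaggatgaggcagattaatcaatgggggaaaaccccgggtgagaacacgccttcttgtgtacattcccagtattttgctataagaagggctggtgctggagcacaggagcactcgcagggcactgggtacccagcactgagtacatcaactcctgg
Cp: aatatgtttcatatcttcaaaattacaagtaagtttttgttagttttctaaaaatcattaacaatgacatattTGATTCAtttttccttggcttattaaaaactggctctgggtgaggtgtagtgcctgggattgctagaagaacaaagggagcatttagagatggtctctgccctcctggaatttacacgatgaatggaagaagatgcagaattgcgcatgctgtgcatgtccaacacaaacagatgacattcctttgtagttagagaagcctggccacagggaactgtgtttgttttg
Cxcl1: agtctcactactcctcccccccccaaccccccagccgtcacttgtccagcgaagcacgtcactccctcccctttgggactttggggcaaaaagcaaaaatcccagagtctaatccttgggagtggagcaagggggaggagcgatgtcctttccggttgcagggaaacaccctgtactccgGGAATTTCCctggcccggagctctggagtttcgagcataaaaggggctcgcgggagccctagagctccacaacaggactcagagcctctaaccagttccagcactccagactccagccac
Dbp: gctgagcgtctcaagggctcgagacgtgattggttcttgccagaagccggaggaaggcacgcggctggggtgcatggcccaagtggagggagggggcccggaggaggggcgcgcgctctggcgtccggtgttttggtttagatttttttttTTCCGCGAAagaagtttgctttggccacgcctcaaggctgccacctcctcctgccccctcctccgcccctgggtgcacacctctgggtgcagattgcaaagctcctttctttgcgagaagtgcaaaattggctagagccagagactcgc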

How the data were processed

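The authors deposited counts per gene for 40 libraries, made with the aligner STAR from paired-end reads of polyadenylated RNA. The version, the counting tool, the strand and the genome build are not given, and gene positions are those of GRCm38. The table holds 55487 genes, of which 55227 have a symbol in the annotation used, and the 260 without one hold 0.118% of the counts.

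Counts of the 16 libraries were filtered, scaled by TMM and fitted with edgeR 4.0.16 (quasi-likelihood, robust) on 4 groups in R 4.3.3. The 4 groups keep the difference between stimuli of 1 side out of the spread. DESeq2 1.42.0 and limma 3.58.1 were run beside it, with scipy 1.17.1, numpy 2.4.6, matplotlib 3.10.9 and pandas 2.3.3 under Python 3.11.15 for tables, permutation tests and plots. Genes under the filter and marker sums were compared by the exact two-sided permutation test of means, 8 against 8. A pooled fold is the ratio of counts summed per side, each divided by its summed effective library size, and pooled folds without each library in turn were added after the data were seen.

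The comparison, its members (the stimuli on each side) and the gene lists were chosen with earlier results of these data known, and the labels decided which libraries belong to each stimulus. Named genes are the 8 of smallest p in each direction with a named symbol, the 3 of smallest p of each of 17 gene lists and 9 marker lists, all receptors of the applied factors and 18 of the genes that the study names.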

Additional observations from a re-analysis of the deposited data

Results flagged for a closer look

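In groups of 4 libraries a value was noted when its gap to the nearest other value, divided by the range of the 4, was above Dixon's 95% critical value for 4 values. Of 132 groups tested 19 values met this, where chance gives about 1 in 20 groups, and in many of them the other 3 libraries were at 0. No explanation was tested.

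The total of il1a+tnfa A, 14831839 counts, stood above those of the other 3 il1a+tnfa libraries. The summed motor neuron markers were at 390 CPM in tgfb2 D, above the other 3 tgfb2 libraries. The summed pluripotent cell markers were at 5.51 CPM in il1a+tnfa D and at 1.33 CPM in c1q+c5 A. The summed endothelial markers were at 1.36 CPM in il1a+tnfa B, 16.6 CPM in il1b+il6 D and 0.421 CPM in tgfb2 A, with 0 CPM in the other 3 libraries of each stimulus. On the principal components, c1q+c5 D had a score of 28.98 on the third and il1a+tnfa D a score of -13.86 on the fourth.

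Among the genes higher on the IL-1-containing side, *Saa3* was at 13.8 CPM in c1q+c5 D, *Ccl20* at 105 CPM in il1a+tnfa A and at 4.42 CPM in tgfb2 A, and *Cxcl5* at 3.42 CPM in c1q+c5 C. *Atm* was at 0.444 CPM in il1b+il6 A, below the other 3 il1b+il6 libraries. Among the genes lower on that side, *Rcan3* and *Stil* were each at 0.204 CPM in il1b+il6 B, *Rhog* at 0.339 CPM in il1a+tnfa B, and *Htra1* at 0.222 CPM in il1b+il6 A and at 26.1 CPM in c1q+c5 D.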

How the results depend on the processing

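The 0 calls of edgeR for IL-1-containing against other stimuli also came with RLE scaling, a stricter filter, 2 groups of 8, a fit that is not robust, an index primer term, an adjusted p of at most 0.1, no fold change threshold, and without each library in turn. At an unadjusted p under 0.05 edgeR counted 524 genes with RLE, 188 with the stricter filter, 281 with 2 groups of 8, 525 without the robust fit and 505 with the index primer term. Without il1b+il6 B it counted 973, without il1a+tnfa B 868, and without the whole of il1b+il6, c1q+c5 or tgfb2 it counted 89, 113 and 109 higher and 135, 224 and 197 lower genes. Without the filter it called 1 gene, with 1704 at an unadjusted p under 0.05. Limma-voom called 0, with 773. DESeq2 called 43, and 25, 21, 45, 39, 36 and 16 for il1a+tnfa against c1q+c5 and tgfb2, il1b+il6 against c1q+c5 and tgfb2, il1a+tnfa against il1b+il6, and c1q+c5 against tgfb2. Limma-voom called 1 for il1a+tnfa against tgfb2 and 1 for c1q+c5 against tgfb2. Over fits without 1 library, edgeR called 0 to 1 genes for il1b+il6 against c1q+c5, 0 to 1 against tgfb2 and 0 to 1 for il1a+tnfa against il1b+il6, each 1 without il1b+il6 replicate B. At an unadjusted p under 0.05 that fit counted 1294, 1236 and 1117 in these 3, beside 642, 588 and 503. For il1a+tnfa against c1q+c5, tgfb2 and il1b+il6 it counted 649, 685 and 771 without il1a+tnfa B, beside 275, 297 and 503. Without c1q+c5 B it counted 544 for il1a+tnfa and 540 for tgfb2 against c1q+c5, and without tgfb2 A 583 for il1a+tnfa and 594 for c1q+c5 against tgfb2, the last beside 307. Limma-voom counted 552 and 622 for il1a+tnfa against c1q+c5 and tgfb2, 917 for il1b+il6 against tgfb2 and 668 for c1q+c5 against tgfb2. With log2 CPM in place of rlog, principal component 2 had p = 0.0104 (exact permutation test, adjusted p = 0.0416). No library had under 20% of the median total, so the fit without such libraries was not run.

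Replicate letters were not used to pair the libraries in the main fit. Of 24 pairs of the same letter 4 correlated above 0.1 after the stimulus means were taken out. The median correlation was 0.029 for pairs of the same letter and -0.006 for other pairs. Of 16 libraries 7 correlated best with a library of their own letter. Replicate B of il1a+tnfa correlated with B of il1b+il6 (0.237) and of c1q+c5 (0.271), which correlated with each other (0.215). Across letters, tgfb2 A correlated with these libraries as well (0.336, 0.213 and 0.282, in the order il1a+tnfa, il1b+il6 and c1q+c5). The counts without each of these libraries are given above, and a cause was not tested. With the replicate block edgeR called 0 genes in IL-1-containing against other stimuli, with 510 at an unadjusted p under 0.05, and 574 with the block and the index primer term.

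Of 114 named genes 100 were tested, and 65 kept their sign under every alternative that gave a value. Of 3112 values 2990 kept direction and side of the threshold, 108 turned and 14 passed the threshold. For all the values that turned the cause was not tested. Log2 fold changes turned with 2 groups of 8 for *Fosl2* (0.26), *Ret* (0.18), *Cd68* (0.26) and *Ccl2* (2.08). *Psma1* turned with DESeq2 (-0.0295) and RLE (-0.0292). With limma-voom *Tgfbr1* (0.16), *Mmp2* (-0.0017), *Cd68* (0.35), *Ccl2* (0.91), *Psma1* (-0.10) and *Slc1a2* (0.0421) turned. With the index primer term *Mmp2* (-0.47), *Olig2* (-1.86) and *Ccl2* (0.68) turned, with the replicate block *Mmp2* (-0.80) and *Olig2* (-0.79), and with both *Mmp2* (-0.95), *Olig2* (-1.0033) and *Ccl2* (0.61).

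Without il1a+tnfa, *Mapk8* (0.0842), *Fosl2* (1.30), *Il1rap* (0.36), *Tgfbr1* (0.22), *Vim* (0.12), *B3gnt5* (0.14), *S100a10* (0.0307), *Ret* (1.17), *Cd68* (1.197), *Cnp* (-0.59), *Hes1* (0.81), *Psma1* (-0.0071), *Ywhaq* (0.0123), *Slc1a2* (0.0338) and *Jun* (-0.0661) turned. Without il1b+il6, *Calr* (0.0592), *Serping1* (0.0738), *Nkx6-1* (-0.0489), *Mthfd2* (0.60), *Ccl2* (3.18), *Cdkn1a* (0.009), *Gins1* (-0.0222), *Hspa5* (0.16) and *Prdx3* (0.33) turned. Without c1q+c5, *Clu* (0.0895), *Cnp* (-0.59), *Hes1* (0.22), *Gins1* (-0.0076) and *Psma1* (-0.0446) turned. Without tgfb2, *Tgfbr1* (0.0102), *Lrp1* (-0.23), *C3* (-0.42), *S100a10* (0.0333), *Cd68* (0.45), *Dll1* (-0.11), *Ppia* (0.052), *Ywhaq* (0.0148), *Slc1a2* (0.22) and *Jun* (-0.22) turned.

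Over fits without 1 library, log2 fold changes ran from -5.80 to 0.0637 for *Pim3*, -1.04 to 3.81 for *Fgl2*, -5.66 to 1.05 for *Ddx58*, -0.28 to 0.12 for *Tgfbr1*, -4.81 to 0.22 for *Cd59a*, -0.10 to 0.0541 for *Vim*, -0.36 to 0.11 for *B3gnt5*, -1.38 to 3.83 for *Mmp2* and -2.89 to 0.91 for *Cd68*. They ran from -2.72 to 2.90 for *Olig2*, -0.23 to 0.42 for *Cnp*, -2.06 to 1.89 for *Ccl2*, -0.10 to 0.0484 for *Ppia*, -0.0788 to 0.11 for *Psma1*, -0.12 to 0.0327 for *Ywhaq*, -0.13 to 0.21 for *Slc1a2* and -0.35 to 1.10 for *Jun*.

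Depth and design limit these comparisons. The floor of 3 counts lay at up to 2.05 CPM and each library held about 200 cells. Many named genes have counts in only some libraries of a stimulus. DESeq2 called some genes of low level, such as *Dbp* (adjusted p = 0.0192) and *Rhog* (adjusted p = 0.0156), which edgeR did not call. The part of depth and cell number in the number of calls was not tested. The il1a+tnfa stimulus and its plate index cannot be told apart, each stimulus was a pair of factors except tgfb2, so the part of IL-1 itself was not tested, and all replicates come from 1 line.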
